A study of Mus musculus with 2 samples.

Results

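The 10 immunoglobulin constant region genes Ighm, Ighd, Ighg3, Ighg1, Ighg2b, Ighg2c, Igha, Igkc, Iglc1 and Iglc2 were followed through single-cell RNA-seq of mouse aorta. They were picked by symbol from the 32285 genes of the count tables, and all 10 had a row and UMIs (unique molecular identifiers, which mark captured RNA molecules) in both libraries. Their levels in these libraries were known when they were picked, so levels and differences are given as description and without a test. The study had 2 libraries, 1 per group, both from aortas of ApoE-deficient (ApoE-/-/C57BL/6) mice kept on a Western diet, which produces atherosclerosis. The library called WT carried no further deletion. The library called EC-iCD45KO came from mice with a tamoxifen-inducible deletion of CD45 (Ptprc), a leukocyte phosphatase, restricted to endothelial cells. Both suspensions of aortic cells were enriched for CD31, which marks endothelium, on beads and made into 10x Genomics libraries. The promoter driving the deletion, the tamoxifen schedule, age, sex and any pooling of animals were not given in the sources used here. With 1 library per group, the genotype and the preparation of the library cannot be told apart, and every interval below (95%) covers counting error only.

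Constant region genes encode the part of an antibody that sets its class. A naive B cell makes IgM and IgD from Ighm and Ighd on the same long transcript. After activation, class switching deletes the DNA in between and joins the rearranged variable gene to a gene further along the locus, so that the cell makes IgG (Ighg3, Ighg1, Ighg2b, Ighg2c) or IgA (Igha) instead. The light chain comes from Igkc (kappa) or from a lambda gene such as Iglc1 or Iglc2, and a cell normally uses a single one. Plasma cells, the secreting end stage, carry this RNA in very large amounts, and the joining chain Jchain links IgM and IgA into polymers.

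In GENCODE M21 on GRCm38 the heavy chain genes lie on the minus strand of chromosome 12 in the order Ighm (chr12:113418558-113422730), Ighd (chr12:113406604-113416324), Ighg3 (chr12:113356224-113361232), Ighg1 (chr12:113325240-113330523), Ighg2b (chr12:113302965-113307933), Ighg2c (chr12:113285325-113288932) and Igha (chr12:113254830-113260236). Igkc (chr6:70726435-70726966) is a single exon on the plus strand. Iglc1 (chr16:19061618-19062071) and Iglc2 (chr16:19198396-19200351) are single exons on the minus strand. Igkc is overlapped by the annotated gene Gm30211, Iglc1 by 2010309G21Rik and Iglc2 by Iglj2, and reads of such pairs can be split by counting. The next lines print the first 60 coding bases of the lambda genes, Iglc3 included, because their likeness limits how far their counts can be kept apart. Capitals mark bases that differ from Iglc2.
Iglc2 (chr16:19198791-19198850, minus strand): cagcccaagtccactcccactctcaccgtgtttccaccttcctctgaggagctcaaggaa
Iglc3 (chr16:19065620-19065679, minus strand): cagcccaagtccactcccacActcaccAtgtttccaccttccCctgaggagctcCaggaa
Iglc1 (chr16:19062010-19062069, minus strand): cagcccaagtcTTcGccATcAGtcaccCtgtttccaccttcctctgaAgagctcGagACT

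Iglc3 differed from Iglc2 at 4 of these bases and Iglc1 at 13. Over the coding part Iglc2 and Iglc3 were 96.2% identical, and 23 of the 399 windows of 60 bases in Iglc2 (5.76%) also occurred in Iglc3. How many UMIs this leaves ambiguous was not measured. No window of Iglc1 occurred in Iglc2 or Iglc3. The same stretch of the 4 IgG genes is printed to show that they can be told apart, with capitals where a gene differs from Ighg2b.
Ighg2b (chr12:113307874-113307933, minus strand): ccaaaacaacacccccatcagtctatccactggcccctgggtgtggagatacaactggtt
Ighg2c (chr12:113288873-113288932, minus strand): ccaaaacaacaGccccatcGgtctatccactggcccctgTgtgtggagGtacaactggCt
Ighg1 (chr12:113330464-113330523, minus strand): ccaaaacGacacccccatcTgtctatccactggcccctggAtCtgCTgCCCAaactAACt
Ighg3 (chr12:113361173-113361232, minus strand): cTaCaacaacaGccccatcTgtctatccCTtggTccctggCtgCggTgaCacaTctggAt

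Ighg2b and Ighg2c were the closest of these, at 85.6% identity over the coding part and 36 of 1055 shared windows (3.41%), and the other IgG pairs shared none. Of the pairs compared, Iglc2 and Iglc3 were therefore the most alike in sequence.

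The WT library held 39849 barcodes and 92058043 UMIs and the EC-iCD45KO library 30278 barcodes and 88967918 UMIs. After filters, 35474 and 26024 cells were used, with medians of 1618 and 1510 UMIs. The libraries shared 340 cell barcodes, 261 of them among the cells used. Ptprc, the targeted gene, was at 291 CPM (counts per 1000000 UMIs) in WT and 111 CPM in EC-iCD45KO in endothelial (EC)-like cells, at 505 and 287 CPM in macrophage-like cells and at 750.5 and 1278 CPM in B-like cells. Clusters were made without any immunoglobulin gene and were named from markers outside the 10 genes. The B-like cluster held 5705 WT cells (16.1%) and 328 EC-iCD45KO cells (1.26%), and the plasma-like cluster 1106 (3.12%) and 64 (0.246%). All 12 B markers, among them Ms4a1 and Pax5, were detected in the B-like cells of both libraries and summed to 11255 and 11194 CPM, against 417 to 2651 CPM in the other named classes of WT and 104 to 761 CPM in those of EC-iCD45KO. All 12 plasma markers were detected in the plasma-like cells, at a summed 32899 and 28863 CPM, of which Jchain alone made up 28366 and 25564 CPM. In the other named classes the plasma markers summed to 246 to 5727 CPM in WT and 161 to 1175 CPM in EC-iCD45KO. Clusters without a clear name held 33.9% of the WT cells and 14.3% of the EC-iCD45KO cells.

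In the cells used, the 10 genes took up 2.57% of the WT UMIs and 0.144% of the EC-iCD45KO UMIs. In WT, 72.4% of these UMIs lay in plasma-like cells, 7.49% in B-like cells, 9.69% in unnamed clusters and 10.4% in other named classes. In EC-iCD45KO the shares were 61.4%, 9.37%, 2.91% and 26.3%. The genes differed in where their UMIs lay. Ighd lay mostly in B-like cells, which held 59.4% of its UMIs in WT and 58.0% in EC-iCD45KO. Ighm lay mostly in plasma-like cells in WT (59.7%) but hardly at all in EC-iCD45KO (0.0265%), where 64.9% of it was found in named classes outside the B lineage. Every member had its highest WT level in plasma-like cells apart from Ighd, which was highest in B-like cells.

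**Figure D1:**
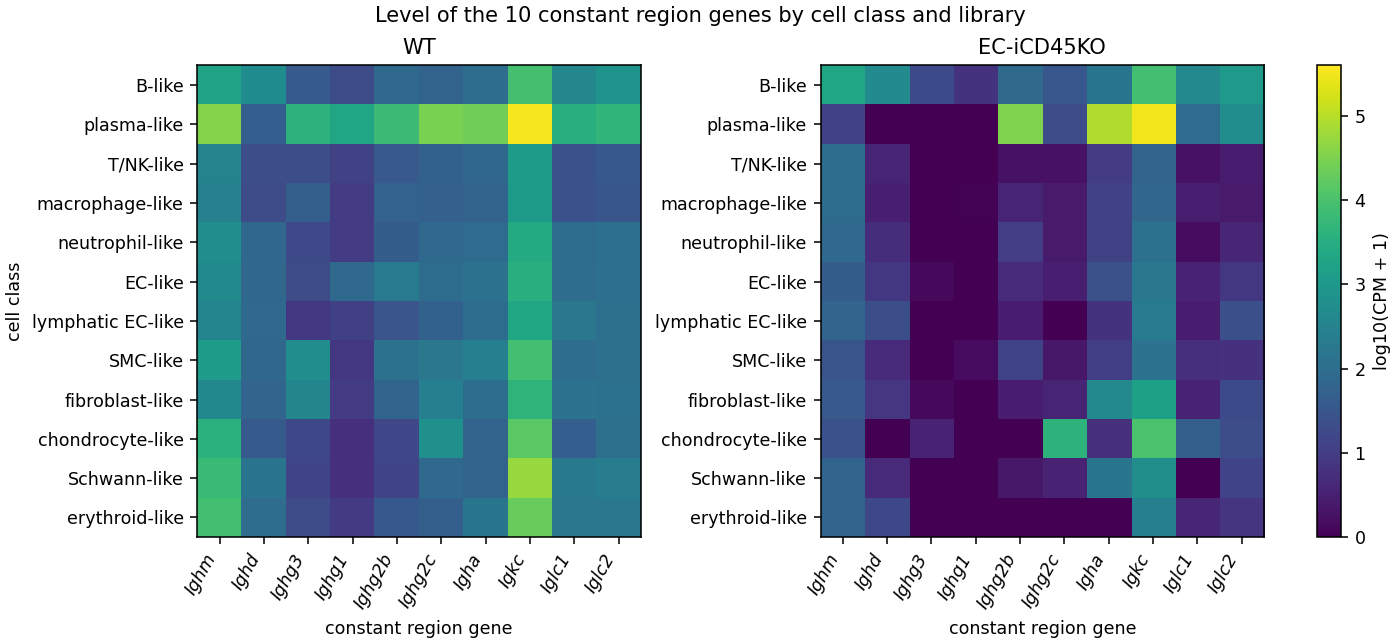
Level of each gene, as log10 of CPM plus 1, in 12 cell classes (rows) of the WT library (left) and the EC-iCD45KO library (right). B-like rows look alike in the 2 libraries, whereas in the plasma-like row Ighm, Ighd, Ighg3, Ighg1 and Ighg2c are bright or present in WT and at or near 0 in EC-iCD45KO.

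In B-like cells the genes of unswitched cells were at like levels in the 2 libraries. Ighm, the heavy chain of IgM, was at 1869.7 CPM in WT (24456 UMIs) and 1918 CPM in EC-iCD45KO (1718 UMIs), a log2 ratio of EC-iCD45KO over WT of 0.04 (-0.03 to 0.11). Ighd, the heavy chain of IgD, was at 536 and 503 CPM, a log2 ratio of -0.09 (-0.23 to 0.05). Igkc, the kappa light chain, was at 8704 and 8242 CPM, a log2 ratio of -0.08 (-0.11 to -0.04). The 10 genes together gave 12569 CPM in WT and 12407 CPM in EC-iCD45KO, for a log2 ratio of -0.02 (-0.05 to 0.01), over 5705 and 328 cells. With B-like cells chosen by each cell's own markers in place of clusters, that ratio was -1.73. This choice took any cell, of any class, with UMIs of at least 2 B markers and no UMI of Jchain, Sdc1, Tnfrsf17 or Derl3. The B markers include Ebf1, at 922 CPM in WT and 563 CPM in EC-iCD45KO EC-like cells, so cells outside the B lineage can enter.

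The switched heavy chains were low in B-like cells. Ighg3 was at 39.9 CPM in WT and 16.7 CPM in EC-iCD45KO, and Ighg1 at 17.8 and 5.58 CPM. Ighg2c was at 59.1 and 32.4 CPM, a log2 ratio of -0.87 (-1.46 to -0.33), and Ighg2b at 79.6 and 87.1 CPM, a log2 ratio of 0.13 (-0.22 to 0.46). Igha went the other way, at 102 CPM in WT and 147 CPM in EC-iCD45KO, for a log2 ratio of 0.53 (0.26 to 0.79). WT EC-like cells with under 5% of their UMIs in the 10 genes had 90.0 CPM of Ighg2c and 81.0 CPM of Igha. This limits the B-like ratios of both genes. The switched genes rested on few EC-iCD45KO UMIs, 15 for Ighg3 and 5 for Ighg1, and 12 of the 15 Ighg3 UMIs came from a single cell. Ighg3 (log2 ratio -1.25, -2.10 to -0.52) and Ighg1 (-1.67, -3.31 to -0.43) were the 2 of 10 members lower by 2-fold or more in EC-iCD45KO, where 1.84% of the 9314 genes measured in B-like cells were, and 0 members were higher by 2-fold, against 3.17% of all genes.

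Of the lambda genes, Iglc2 was at 766 CPM in WT B-like cells and 1021 CPM in EC-iCD45KO B-like cells, a log2 ratio of 0.42 (0.32 to 0.51). Iglc1 was at 395 and 434 CPM, a log2 ratio of 0.14 (-0.02 to 0.29), and Iglc3, which shares sequence with Iglc2, at 441 and 670 CPM (0.60, 0.48 to 0.73). All 3 lambda ratios were above 0 while that of Igkc was below it.

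Shares of cells with a UMI were compared after each cell was thinned to 1000 UMIs. An Ighm UMI was found in 76.1% of 5345 WT B-like cells (74.9 to 77.2%, 360 shallower cells left out, 88.3% unthinned) and in 73.6% of 307 EC-iCD45KO B-like cells (68.3 to 78.5%, 21 left out, 83.5% unthinned). EC-like cells, which should lack the gene, gave 28.8% (27.0 to 30.6%, 1085 left out, 43.0% unthinned) in WT and 4.82% (4.03 to 5.71%, 1471 left out, 8.13% unthinned) in EC-iCD45KO. Median depths were 2016 UMIs in B-like and 1408 UMIs in EC-like cells of WT, and 2560.5 and 1289 UMIs in EC-iCD45KO. Ighm was thus above its EC-like share in the B-like cells of both libraries, by a wider margin in EC-iCD45KO. With B-like cells chosen by each cell's own markers, which can take in cells of other classes, the Ighm shares were 55.2% in WT and 26.3% in EC-iCD45KO. Thinned shares for Igkc were 97.9% and 96.1% in B-like cells against 71.6% and 9.68% in EC-like cells, and for Ighd 41.8% and 37.5% against 8.28% and 0.995%. The switched genes were close to the EC-like background in WT, with Igha in 6.98% of B-like and 7.65% of EC-like cells and Ighg2c in 5.29% and 5.94%, so these 2 shares were read as background there.

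Where a B-like cell had at least 10 heavy chain UMIs, the cell was mostly unswitched. Ighm and Ighd together made up at least 80% of the heavy chain UMIs in 857 of 949 such WT cells (90.3%) and in 76 of 83 such EC-iCD45KO cells (91.6%). Igha dominated in 12 of the 949 WT cells (1.26%) and 4 of the 83 EC-iCD45KO cells (4.82%). Lambda held at least 80% of the light chain UMIs in 109 of the 4657 WT B-like cells with at least 10 of them (2.34%, 1.93 to 2.82%) and in 9 of 278 EC-iCD45KO cells (3.24%, 1.49 to 6.06%).

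In plasma-like cells the heavy chains of the 2 libraries were not the same. The 10 genes together were at 445664 CPM in WT and 427916 CPM in EC-iCD45KO, for a log2 ratio of -0.06 (-0.07 to -0.05). A single cell held 46.5% of these UMIs in EC-iCD45KO and 1.63% in WT, and without the highest cell of each library the log2 ratio was -0.48 (-0.50 to -0.47). Igkc supplied most of the total, at 334448 and 308143 CPM (-0.12, -0.13 to -0.11), or -0.46 without the highest cells. The ratio of the sum also changed sign with finer clusters (0.13) and a stricter cell filter (0.12), and was -1.55 with classes from each cell's own markers. By own markers, any cell with UMIs of at least 2 of Jchain, Sdc1, Tnfrsf17 and Derl3 was plasma-like, whatever its cluster. Ighm was at 35934 CPM in WT (128127 UMIs in 1106 cells) and at 11.7 CPM in EC-iCD45KO, where 2 UMIs were counted in 64 cells (log2 ratio -11.58, -14.63 to -9.73). Ighg2c was at 29856 CPM in WT and 17.6 CPM in EC-iCD45KO, from 3 UMIs (-10.73, -13.01 to -9.18). Ighg3 was at 4113 CPM and Ighg1 at 1938 CPM in WT, and neither had a UMI in the EC-iCD45KO cells. A single WT cell held 53.8% of the Ighg1 UMIs. With 3 counts in place of 0, the log2 ratio was at most -7.87 for Ighg3, at most -6.78 for Ighg1 and at most -1.42 for Ighd (47.1 CPM in WT, no UMI in EC-iCD45KO).

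Igha and Ighg2b were the heavy chains of the EC-iCD45KO plasma-like cells. Igha was at 24635 CPM in WT and 85879 CPM in EC-iCD45KO, for a log2 ratio of 1.80 (1.78 to 1.83). Ighg2b was at 6867 CPM in WT and 33219 CPM in EC-iCD45KO, for a log2 ratio of 2.27 (2.23 to 2.32). Each EC-iCD45KO value rested on 1 cell. A cell held 10974 of the 14630 Igha UMIs (75.01%), and another 4785 of the 5659 Ighg2b UMIs (84.6%). Without the cell highest in the gene in each library, a check chosen after seeing the data, Igha was at 22762 CPM in WT and 29688 CPM in EC-iCD45KO (0.38, 0.34 to 0.43) and Ighg2b at 5823 and 5897 CPM (0.02, -0.08 to 0.12). The higher Ighg2b level of the EC-iCD45KO library therefore rested on a single cell. The lambda genes were lower in EC-iCD45KO. Iglc1, at 3181 and 88.1 CPM (-5.18, -6.01 to -4.45), and Iglc2, at 4645 and 558 CPM (-3.06, -3.36 to -2.77), stayed lower without the highest cells, at -4.81 and -3.12. In all, 7 of 10 members were lower and 2 higher by 2-fold or more, in a class of few EC-iCD45KO cells where 12.1% of 8692 genes were lower and 18.2% higher by that much. Ighd, Ighg3 and Ighg1 reached the required mean of 5 CPM only through WT, which fixed their direction, so these counts are a description and support nothing.

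Counts of cells give each cell the same weight. A cell was given a dominant heavy chain when it had at least 10 heavy chain UMIs and 1 gene held at least 80% of them. In WT, 1051 of 1106 plasma-like cells (95.03%) had one, and in EC-iCD45KO 59 of 64 (92.2%), with 6 mixed cells in WT and 0 in EC-iCD45KO. The WT cells divided into 423 Ighm (38.2%, 35.4 to 41.2%), 241 Ighg2c (21.8%, 19.4 to 24.3%), 239 Igha (21.6%, 19.2 to 24.1%), 102 Ighg2b (9.22%), 32 Ighg1 (2.89%) and 14 Ighg3 cells (1.27%). The EC-iCD45KO cells divided into 47 Igha (73.4%, 60.9 to 83.7%) and 12 Ighg2b cells (18.8%, 10.1 to 30.5%). No EC-iCD45KO plasma-like cell was dominated by Ighm, Ighg2c, Ighg1 or Ighg3, with an exact upper bound of 5.601% for each. With a looser cell filter, 4.00% (0.83 to 11.2%) were dominated by Ighm. The 1051 WT plasma-like cells with a dominant heavy chain therefore spread over 6 heavy chains and the 59 EC-iCD45KO cells with one over 2. The bound of 5.601% lies above the WT shares of Ighg1 and Ighg3 cells, so the lack of these 2 among few cells says little. The EC-iCD45KO share of Igha cells was lower with other ways of choosing plasma-like cells, at 52.6% with finer clusters and 34.3% with classes from each cell's own markers, where WT had 10.96% by the latter.

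**Figure D2:**
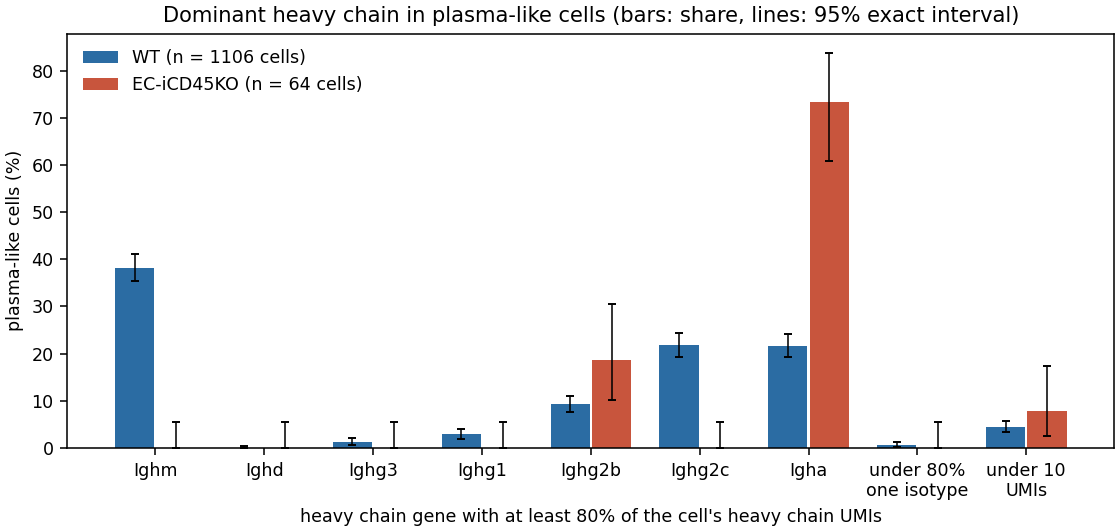
Share of plasma-like cells (y axis, %) by the heavy chain gene that held at least 80% of a cell's heavy chain UMIs (x axis), with exact 95% intervals, in WT (1106 cells) and EC-iCD45KO (64 cells). Ighm and Ighg2c have tall WT bars and no EC-iCD45KO bar, and the Igha bar reaches 73.4% in EC-iCD45KO against 21.6% in WT.

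In the plasma-like cluster the light chain was kappa in nearly all cells. Igkc held at least 80% of the light chain UMIs in 1053 of 1106 WT cells (95.2%) and 62 of 64 EC-iCD45KO cells (96.9%), and the lambda genes did so in 27 WT cells (2.44%, 1.61 to 3.53%) and 0 EC-iCD45KO cells (up to 5.601%). By heavy chain, 18 of the 423 WT Ighm cells were lambda (4.26%), 7 of 239 Igha cells (2.93%) and 1 of 389 IgG cells (0.257%). Lambda cells were thus mostly among the IgM and IgA cells of WT. With plasma-like cells chosen by each cell's own markers, 71.2% of WT and 47.1% of EC-iCD45KO cells were kappa.

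Heavy chain UMIs per cell are given by isotype, without division by gene length, so the isotypes are not ranked. The median cell had 64 heavy chain UMIs with Ighm, 69 with Igha, 68 with Ighg2c, 53.5 with Ighg2b and 92 with Ighg1. In EC-iCD45KO the median was 47 UMIs with Igha and 79 with Ighg2b. The 10 genes took 25.4% of the median Ighm cell's UMIs, 20.98% of the median Igha cell's, 18.8% of the median Ighg2c cell's and 37.1% of the median Ighg1 cell's in WT, and 21.6% of the median Igha cell's in EC-iCD45KO. The 14 Ighg3 cells of WT had a median of 716.5 heavy chain UMIs and 70.7% of their UMIs in the 10 genes, at a median depth of 7704 UMIs against 1429 in Ighm cells.

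Jchain, whose protein joins IgM and IgA monomers but is not a part of IgG, was taken as CPM of the UMIs outside immunoglobulin genes. Its median per cell was 31359 CPM in WT Ighm cells, 26018 CPM in WT Igha cells and 22142 CPM in EC-iCD45KO Igha cells. It was lower in IgG cells of WT, at medians of 6770.5 CPM with Ighg2c, 10709 CPM with Ighg2b, 8976 CPM with Ighg3 and 4165 CPM with Ighg1. The 12 Ighg2b cells of EC-iCD45KO had a median of 17779.7 CPM, inside the quartiles of WT Ighg2b cells (4382 to 18967 CPM). Jchain was a marker used to name the cluster but took no part in sorting its cells by isotype.

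**Figure D3:**
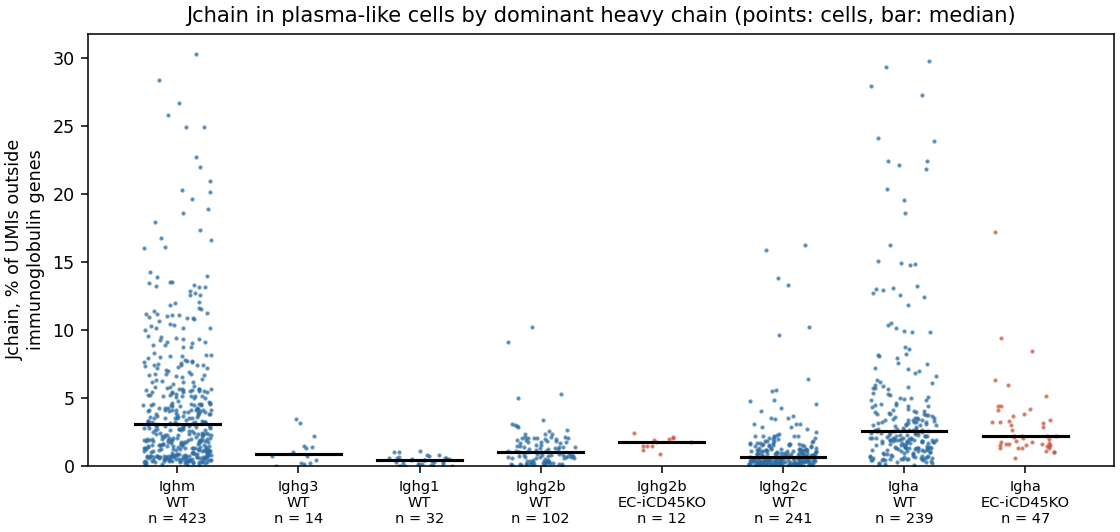
Jchain in each plasma-like cell, as a percent of the UMIs outside immunoglobulin genes (y axis), by dominant heavy chain and library (x axis, with the number of cells), with bars at the medians. In WT, 461 of 662 Ighm and Igha cells and 376 of 389 IgG cells lie under 5%, and the highest cells reach 30.3% and 16.3%.

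Variable genes show whether an isotype rested on many cells with different antibodies. In B-like cells the most frequent kappa variable gene was found in 42 of the 510 WT cells with any such UMI (8.24%, Igkv1-117) and in 3 of 34 EC-iCD45KO cells (8.82%, Igkv17-127). WT plasma-like cells were also spread out, with 122 cells having at least 5 kappa variable UMIs, at least 80% from 1 gene, over 37 genes, and the commonest, Igkv6-17, in 11 of them. Igkv3-2 was found in 39 of the 122 WT Igha cells with a kappa variable UMI (32.0%) and Igkv3-10 in 15 of 26 WT Ighg1 cells (57.7%). In EC-iCD45KO, Igkv1-117 was found in 14 of the 26 Igha cells with a kappa variable UMI (53.8%), where any UMI of the gene counted. Igkv1-117 gave 91 of the 116 kappa variable UMIs of these cells, so few UMIs stood behind the other variable genes of the EC-iCD45KO Igha cells. Only 2 EC-iCD45KO Igha cells had at least 5 kappa variable UMIs with at least 80% from 1 gene. A single EC-iCD45KO plasma-like cell held 43.5% of the Igkc UMIs of its class, so these shares do not show a variable gene shared by many cells.

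Outside the B lineage the summed level of the 10 genes was lower in EC-iCD45KO than in WT in each of the 10 other named classes. In EC-like cells the sum was 4489 CPM in WT and 265 CPM in EC-iCD45KO, for a log2 ratio of -4.08 (-4.14 to -4.03), and in macrophage-like cells 1735 and 188 CPM (-3.20, -3.24 to -3.16). The sum in smooth muscle (SMC)-like cells was 10929 and 203 CPM (-5.75), in T/NK-like cells 1785 and 174 CPM (-3.36) and in neutrophil-like cells 3676 and 237 CPM (-3.95). The difference was smaller in fibroblast-like cells, at 5972 and 2056 CPM (-1.54), and in chondrocyte-like cells, at 19094 and 14064 CPM. The levels were 3029 and 321 CPM in lymphatic EC-like, 60499.9 and 829 CPM in Schwann-like, and 29022.5 and 349 CPM in erythroid-like cells. In the erythroid-like class, 1 of 302 WT cells held 87.8% of its UMIs of the 10 genes. Without that cell the erythroid-like levels were 3735 CPM in WT and 349 CPM in EC-iCD45KO. All 10 members were lower by 2-fold or more in EC-like cells, where 3.43% of 10963 genes were, and all 10 in T/NK-like cells (2.48% of all genes). All 9 members that reached a mean of 5 CPM were lower in macrophage-like (1.85% of all genes), neutrophil-like (10%) and SMC-like cells (4.46%). The counts were 8 of 9 in fibroblast-like (4.16%), lymphatic EC-like (11.9%) and erythroid-like cells (14.9%), 6 of 7 in Schwann-like (10%) and 5 of 9 in chondrocyte-like cells (12.3%), in which all genes had a median log2 ratio of -0.145. Several members in each of these classes reached the 5 CPM mean only through WT, which fixed their direction, so these counts are a description and support nothing. No member was higher by 2-fold or more in EC-like (1.61% of all genes), T/NK-like (4.69%), macrophage-like (0.722%), neutrophil-like (5.39%), SMC-like (1.38%), lymphatic EC-like (10.1%) or erythroid-like cells (14.3%). WT had 1106 plasma-like and 5705 B-like cells and EC-iCD45KO 64 and 328, and the levels in the other classes moved with these numbers. The part of free RNA in them was not tested.

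1 member was higher in EC-iCD45KO in fibroblast-like (1 of 9, 1.73% of all genes), Schwann-like (1 of 7, 13.4%) and chondrocyte-like cells (1 of 9, 5.51%). Igha was at 103 CPM in WT and 431 CPM in EC-iCD45KO in fibroblast-like cells (2.07, 1.91 to 2.23), and at 59.99 and 149 CPM in Schwann-like cells (1.31, 0.48 to 2.26). Ighg2c was at 645 and 4223 CPM in chondrocyte-like cells (2.71, 2.61 to 2.81), a class of 43 EC-iCD45KO cells with a median depth of 7485 UMIs against 1714 in WT. Each of these rested on a few cells that were rich in the 10 genes.

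Cells outside the B lineage with at least 5% of their UMIs in the 10 genes were set apart to show this. The limit marks a range and not a type, and 19 EC-like, 19 SMC-like, 16 Schwann-like, 14 chondrocyte-like and 11 fibroblast-like WT cells lay between 4% and 6%. In the Schwann-like class, 12 of 103 WT cells (11.7%) lay at or above 5% and held 86.9% of its UMIs of the 10 genes. In WT, 159 of 733 chondrocyte-like cells (21.7%), 110 of 1983 SMC-like cells (5.55%), 42 of 1796 fibroblast-like cells (2.34%) and 41 of 3609 EC-like cells (1.14%) were at or above 5%. They held 90.7%, 75.6%, 50.6% and 37.1% of their classes' UMIs of the 10 genes. In EC-iCD45KO, 32 of 2344 fibroblast-like cells (1.37%) held 90.7%, 6 of 43 chondrocyte-like cells 99.4% and 4 of 4085 EC-like cells 24.3%. No EC-iCD45KO SMC-like cell reached 5%.

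**Figure D4:**
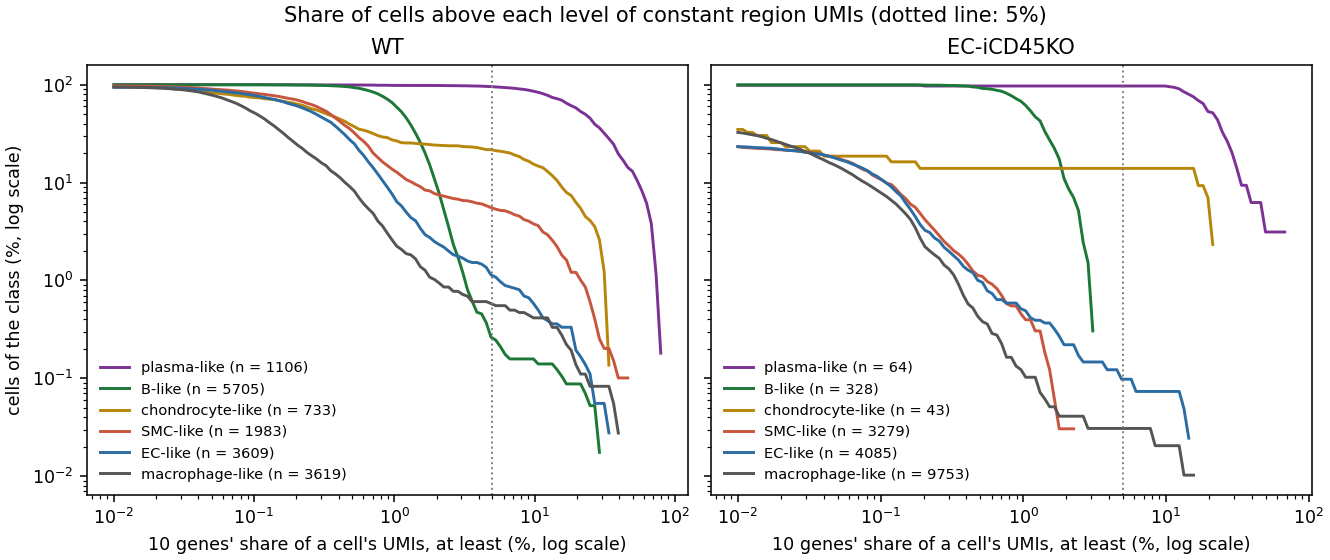
Share of cells of a class (y axis, %, log scale) in which the 10 genes held at least a given share of the UMIs (x axis, %, log scale), in WT (left) and EC-iCD45KO (right), with a dotted line at 5%. In WT the chondrocyte-like curve crosses the line at 21.7% of cells and the SMC-like curve at 5.55%, and in EC-iCD45KO the SMC-like curve ends before it while 6 of 43 chondrocyte-like cells lie beyond it.

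These rich cells mostly carried 1 isotype each (6 of 12 in the WT Schwann-like class), and within a class often the same isotype and variable gene. All 32 in the EC-iCD45KO fibroblast-like class were Igha-dominant, and 16 of the 17 with a kappa variable UMI had Igkv4-59. Of the 42 in the WT fibroblast-like class 26 were Ighg3-dominant, and all 19 of these with a kappa variable UMI had Igkv12-46. In the WT SMC-like class 31 of 110 were Ighg3-dominant with Igkv6-15 in all 14 with a kappa variable UMI. All 6 in the EC-iCD45KO chondrocyte-like class were Ighg2c-dominant with Igkv10-96 in 4 of 4, and 20 WT chondrocyte-like rich cells were Ighg2c-dominant with Igkv10-96 in 8 of 10. A further 131 of the 159 WT chondrocyte-like rich cells were Ighm-dominant, and Igkv12-44 was found in 30 of the 85 with a kappa variable UMI (35.3%). Igkv1-117, the commonest kappa variable gene of EC-iCD45KO Igha plasma-like cells, was thus not the one of the EC-iCD45KO Igha fibroblast-like cells.

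The rich cells also held RNA of other plasma cell genes. Their median depth was 1723 UMIs in the WT chondrocyte-like class against 1714 for the rest, 1825.5 against 1291 in the WT SMC-like class, 1085 against 1411 in the WT EC-like class and 1443.5 against 1259.5 in the EC-iCD45KO fibroblast-like class. The 12 plasma markers, among them Mzb1, Xbp1 and Derl3, summed, as CPM of the UMIs outside immunoglobulin genes, to 15782 against 506 CPM in the WT chondrocyte-like class and to 45647 against 601 CPM in the EC-iCD45KO fibroblast-like class. Jchain made up most of both, with 13680 CPM in the former and 41668 CPM in the latter. Without it the other markers summed to 2102 against 402 CPM and to 3979 against 599 CPM, and in the 3 rich EC-iCD45KO macrophage-like cells to 338 against 246 CPM. Whether such a barcode held RNA of a plasma cell beside that of its own cell was not tested.

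Without the rich cells the sum was lower in EC-iCD45KO in all 10 of these classes. The 3 differences that had gone the other way were then also lower in EC-iCD45KO, with Igha at 86.9 and 9.37 CPM in fibroblast-like cells, at 66.6 and 10.1 CPM in Schwann-like cells, and Ighg2c at 55.8 CPM in WT and without a UMI in the 37 remaining EC-iCD45KO chondrocyte-like cells. The log2 ratio of the sum was -3.83 (-3.90 to -3.76) in EC-like cells (2854 and 201 CPM), -3.97 in fibroblast-like, -3.79 in SMC-like and -2.90 in macrophage-like cells. This set of cells was chosen after seeing the data, and the cells were left out by the UMIs that are compared. The counts below are again a description, since several members reached 5 CPM only through WT. Of the members that reached a mean of 5 CPM without them, all 9 were lower by 2-fold or more in EC-like cells (3.41% of all genes), macrophage-like (1.84%), T/NK-like (2.46%), neutrophil-like (9.93%) and fibroblast-like cells (4.13%). The count was 8 of 9 in SMC-like (4.34%), lymphatic EC-like (11.9%) and erythroid-like cells (15.9%), 7 of 7 in Schwann-like (11.6%) and 7 of 9 in chondrocyte-like cells (12.9%), and 0 were higher in any class.

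The mixture of the 10 genes differed between the libraries even where their sum was low. Among cells under 5%, the WT classes other than T/NK-like and macrophage-like had 0.0990 to 0.207 Ighm UMIs per Igkc UMI, near or below the 0.217 of WT B-like cells. In WT the ratio was 0.327 in T/NK-like and 0.316 (0.304 to 0.328) in macrophage-like cells. In EC-iCD45KO it was 0.233 in B-like cells but 1.73 (1.64 to 1.83) in macrophage-like, 1.38 (1.01 to 1.90) in T/NK-like and 0.665 (0.543 to 0.813) in neutrophil-like cells. It was 0.205 in SMC-like, 0.267 in fibroblast-like and 0.348 (0.312 to 0.389) in EC-like cells of EC-iCD45KO. Schwann-like cells of EC-iCD45KO were at 0.531 (0.371 to 0.754) and lymphatic EC-like cells at 0.336, so the ratio differed among the classes outside the B lineage, with macrophage-like and T/NK-like cells highest. The part of free RNA in these ratios was not tested.

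**Figure D5:**
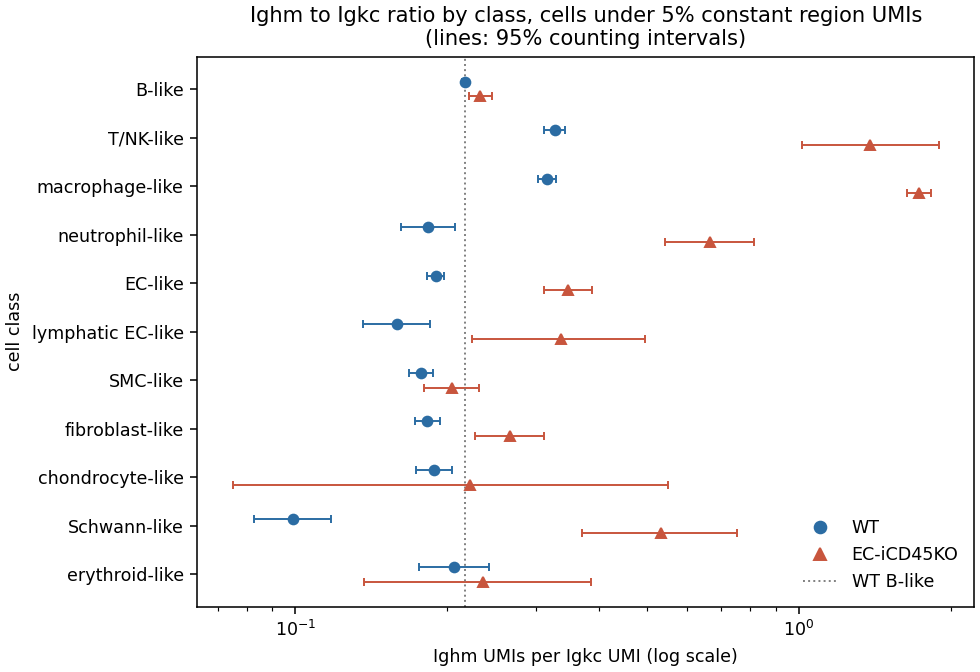
Ighm UMIs per Igkc UMI (x axis, log scale) in 11 cell classes, for cells with under 5% of their UMIs in the 10 genes, with 95% counting intervals. The dotted line marks WT B-like cells at 0.217, and the macrophage-like and T/NK-like points of EC-iCD45KO lie at 1.73 and 1.38.

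In EC-iCD45KO macrophage-like cells Ighm was at 95.3 CPM and Igkc at 54.9 CPM under the 5% limit, where WT had 252 and 798 CPM. Of the 2108 EC-iCD45KO macrophage-like cells with an Ighm UMI, 1756 (83.3%) had no Igkc UMI, and in WT 238 of 1756 (13.6%) had none. The Ighm counts were small, with at least 3 UMIs in 353 of these EC-iCD45KO cells and at most 10. The ratio was 1.93, 1.80 and 1.03 in the 3 macrophage-like clusters of EC-iCD45KO, and 0.372, 0.405 and 0.191 in the same clusters of WT. The first was the largest in EC-iCD45KO (4652 cells) and the second in WT (1356 cells), so different clusters led the class. Ighm shares of thinned macrophage-like cells were 21.7% in WT (495 cells left out) and 9.10% in EC-iCD45KO (2898 left out), at median depths of 3144 and 2049 UMIs and unthinned shares of 48.9% and 21.6%. Which transcripts of the Ighm locus these UMIs came from was not tested.

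The partners of the B cell receptor and the machinery that switches and secretes antibody were read from lists. In B-like cells, 0 of 14 receptor partners, 0 of 10 measured class switching genes and 0 of 15 secretion genes were 2-fold lower or higher, where 1.84% of all genes were lower and 3.17% higher, so that counts of 0 in lists of this size say little. The lists' median log2 ratios were 0.06, -0.16 and -0.01 beside 0.04 over all genes. Cd79a and Cd79b, which carry the signal of the receptor and were among the B markers used for naming, were at 2885 and 2711 CPM and at 1187 and 1444 CPM in WT and EC-iCD45KO. Hspa5, the chaperone that holds unassembled heavy chains, was at 1004 and 790.2 CPM (-0.35, -0.46 to -0.24). Of 13 measured genes of B cell states, 2 were higher by 2-fold or more, beside 3.17% of all genes, Zbtb32 at 10.4 and 21.2 CPM (1.03, 0.25 to 1.73) and Spn at 6.65 and 13.4 CPM (1.01, with an interval that began at 0.00 and ended at 1.89). Ccr7, a receptor that guides B cells to lymphoid tissue, was at 316 and 208 CPM (-0.61, -0.83 to -0.39).

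In plasma-like cells the secretion list had a median log2 ratio of -0.28, beside 0.09 over all genes, with 1 of 15 genes lower by 2-fold (12.1% of all genes were), Dnajb9 at 82.5 and 11.7 CPM. Of the class switching genes, 3 of 7 measured were lower (median -0.90), and of the receptor partners 2 of 14 (median -0.59), with 0 higher in either list. Hsp90b1, a chaperone of the endoplasmic reticulum, was at 2049.6 and 1279.7 CPM (-0.68, -0.88 to -0.49). Of 10 measured Fc receptor and transporter genes, 6 were higher by 2-fold or more and 3 lower, beside 18.2% and 12.1% of all genes. The 6 included Fcer1g, the shared signalling chain of Fc receptors, at 441 and 1051 CPM (1.25, 1.02 to 1.48) and Fcgr3 at 43.8 and 141 CPM (1.69, 1.002 to 2.31), genes that macrophages carry. Macrophage-like cells were 10.2% of WT and 37.5% of EC-iCD45KO cells, and their part in these 2 values was not tested. Fcmr, a receptor for IgM, was at 55.0 CPM in WT and had no UMI in EC-iCD45KO (log2 ratio at most -1.64).

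In EC-like cells, 8 of 14 receptor partners were lower by 2-fold or more (3.43% of all genes were), with a list median of -1.34 beside -0.00 over all genes, and 0 were higher. Ptprc, the gene targeted in endothelial cells of EC-iCD45KO, was on this list and among the 8. Cd79a was at 382 and 24.9 CPM (-3.94, -4.13 to -3.75) and Cd79b at 151 and 18.5 CPM (-3.02, -3.25 to -2.80). The secretion list held 0 of 15 genes past 2-fold in these cells. B markers thus differed alongside the 10 genes in EC-like cells, at a summed 2168 CPM in WT and 668 CPM in EC-iCD45KO, of which Ebf1 alone made up 922 and 563 CPM, and their part in the levels of the 10 genes was not tested.

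For each member the 3 genes with the most similar pattern over 23 profiles (class by library, at least 50 cells) were listed as a description, with profiles of a library sharing its depth and free RNA. Ighd was most like the B cell genes H2-Oa (Pearson r 0.981), Pax5 (0.977) and H2-DMb2 (0.973). Igkc was most like Gm30211, which overlaps it (0.968), Mzb1 (0.940) and Jchain (0.912). Iglc2 was most like Iglc3 (0.974), Mzb1 and Pou2af1, and Iglc1 like Iglc3 (0.936), Pou2af1 and Mzb1. Igha was most like Iglv1 (0.868), Jchain (0.854) and Iglv3, and Ighg2b like Iglv1 (0.890), Igkv1-117 and Iglv3. Ighm had weaker partners, led by Bfsp2 (0.817), Ly6d and Gm31243, and so had Ighg2c (Iglc3, 0.839), Ighg1 (Iglc3, 0.784) and Ighg3 (Iglc3, 0.747).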

How the data were processed

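Single-cell RNA-seq of 2 libraries, 1 per group, was used. Per the file headers, the authors deposited raw UMI counts per gene and barcode from Cell Ranger 7.1.0, and the submitters' processing notes name the build mm10. The annotation, counting of introns, chemistry version, cell calling and pooling of animals were not given in the sources used here, nor was the version of kit that decides which end of a transcript is read. Every deposited barcode had at least 500 UMIs.

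Cells needed 300 or more genes and no more than 10% of UMIs from mitochondrial genes. Scrublet marked 2 of 39716 WT and 0 of 29991 EC-iCD45KO cells, too few to have worked, so the 10% of cells with the highest doublet scores were removed from each library (4029 and 2936 cells). Cells were clustered with scanpy 1.11.5 and leidenalg 0.10.2 (2000 variable genes without immunoglobulin genes, 30 components, 20 neighbours, resolution 1). A cluster was named from the markers of 18 classes when its mean log2 excess of a class's markers was at least 1 and led the next class by at least 0.75, with at least 3 markers detected, at least 50 cells and no leading genes of another cell type. A cluster of 1873 WT cells and 1 EC-iCD45KO cell passed the numeric limits but was led by kidney tubule genes and stayed unnamed. These naming limits came from an earlier analysis of the same data, so names and shares may differ from the study's own.

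UMIs were summed per class and library and given as CPM, not divided by gene length, so genes are compared between classes and libraries and are not ranked against each other. Ratios of 2 genes, such as Ighm per Igkc, are compared between classes and libraries only. Intervals were exact at 95% (Poisson, Clopper-Pearson, or conditional binomial for ratios) and cover counting error only, since cells of 1 library are not replicates. No test was made. A gene counted as lower or higher at 2-fold, among genes averaging 5 CPM or more over the libraries in the class, and 0 counts were replaced by 3 in bounds. In B-like simulated data on 9221 genes with 200 changed 4-fold, 96.2% of intervals held the true ratio. The simulated counts were Poisson, as the intervals assume. They therefore check the calculation only and cannot show how UMIs gathered in few cells affect the real intervals.

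The genes named were the 10 members, the members of pathway lists, the most frequent variable gene per isotype, and for each member the 3 genes of highest Pearson correlation of log2(CPM + 1) among genes reaching 50 CPM. Members and lists were chosen with earlier results of these data known. Alternatives were other cell filters, no doublet removal, resolution 2, classes from each cell's own markers, edgeR 4.0.16 TMM factors, CPM outside immunoglobulin genes, means of single-cell CPM, thinning to 2000 UMIs and stricter dominance. By own markers, a cell with UMIs of at least 2 B markers and none of Jchain, Sdc1, Tnfrsf17 and Derl3 was B-like. A cell with UMIs of at least 2 of these named genes was plasma-like. Cells of any cluster could enter either class.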

Additional observations from a re-analysis of the deposited data

Results flagged for a closer look

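All 10 genes were lower in EC-iCD45KO in EC-like cells, and for 3 of them the counting interval of the ratio lay above 0 in B-like or plasma-like cells. The log2 ratio of EC-iCD45KO over WT for Ighg2b was 2.27 in plasma-like cells and -5.73 in EC-like cells. Igha was at 1.80 in plasma-like cells and 0.53 in B-like cells against -2.51 in EC-like cells. The WT B-like level of Igha (102 CPM) was near that of WT EC-like cells, at 130.2 CPM with all cells and 81.0 CPM without the cells from 5%, where B-like cells had 92.2 CPM. This limits the B-like ratio. Iglc2 was at 0.42 in B-like cells against -3.98 in EC-like cells, but at -3.06 in plasma-like cells. Ighm (0.04) and Iglc1 (0.14) were also above 0 in B-like cells, with intervals that held 0. With 1 library per group these differences between classes were not tested. Without the cell highest in the gene in each library, the plasma-like ratio was 0.02 for Ighg2b and 0.38 for Igha.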

How the results depend on the processing

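No paired analysis was possible because WT and EC-iCD45KO had 1 library apiece. No library was left out for the same reason, and the ratios carry no error between animals. Depth limits the EC-iCD45KO plasma-like values, which rest on 64 cells, and 3 counts there correspond to 17.6 CPM.

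The share of Igha-dominant plasma-like cells in EC-iCD45KO (73.4%) was 52.6% at resolution 2 and 34.3% with classes from each cell's own markers. In WT (21.6%) it was 19.0% with at least 20 UMIs and 90% of one chain and 10.96% with own markers. The summed B-like log2 ratio (-0.02) was -0.12 with TMM factors, -0.11 with the stricter filter and -1.73 with own markers. The summed plasma-like ratio (-0.06) changed sign at resolution 2 (0.13) and with the stricter filter (0.12), and was -0.12 for CPM outside immunoglobulin genes, -0.30 with TMM factors, -1.55 with own markers, -0.58 with the looser filter, -0.22 as a mean of single cells and -0.072 without doublet removal. The summed EC-like ratio (-4.08) was -3.97 at resolution 2, -4.17 with own markers, -4.85 with the looser filter, -3.48 as a mean of single cells, -4.61 without doublet removal, -4.56 with the stricter filter and, in an alternative chosen after seeing the data, -3.83 without cells from 5%. The cause of these shifts was not tested. Of the other values recomputed, 29 moved and 38 did not, by the counting interval or, for counts and shares of genes, by 1.5 times. With no minimum level and 0.5 CPM added, 8.48% of all genes were 2-fold lower in B-like cells, against 1.84%, while the members lower stayed at 2.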

Other observations

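Iglv1, a lambda variable gene, was looked at after its values were seen, as it was among the genes most like Igha and Ighg2b. It had a UMI in 583 of 1053 WT plasma-like cells whose light chain was kappa (55.4%) and in 16 of 62 in EC-iCD45KO (25.8%). These cells held 6983 and 245 Iglv1 UMIs, or 5.91 and 4.67 for every 1000 Igkc UMIs. Of the 27 WT lambda plasma-like cells, 7 had an Iglv1 UMI, 24 UMIs in all. Whether these UMIs came from transcripts of Iglv1 was not tested.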
